A study of Mus musculus with 9 samples.

Results

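Replication-dependent histone genes encode the bulk of the core histones H2A, H2B, H3 and H4 and of the linker histone H1. The data set held 31 probe sets for these genes, one gene each, of the 21780 probe sets that carried a single gene symbol, which named 19935 genes. A probe set was taken when its one annotated gene has a symbol starting with Hist1h, Hist2h, Hist3h or Hist4h, or the newer name of such a gene. The 31 comprised 5 H1, 5 H2A, 11 H2B, 3 H3 and 7 H4 genes. By the older symbols 23 belong to the Hist1 cluster on chromosome 13, 4 to Hist2 on chromosome 3, 3 to Hist3 on chromosome 11 and 1 to Hist4 on chromosome 6. The RefSeq gene table of assembly GRCm38.p6 lists 70 such genes, so 39 had no probe set of their own here. No member shared its values on all 9 arrays with another probe set, whereas 0.583% of the tested probe sets (127) did. The label holds only in part, since H1f6, H2ac1 and H2bc1 are testis histone genes and H2bu1-ps is a transcribed pseudogene.

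RNA came from NIH 3T3 cells, a mouse fibroblast line, in 3 groups of 3 biological replicates with 1 Affymetrix Mouse Gene 1.0 ST array each. The groups stably carried an shRNA against Net (gene Elk3), an shRNA against Sap-1 (gene Elk4) or the empty vector pLKO.1, here called control. Net and Sap-1 are ETS-family transcription factors that join serum response factor on its target promoters. All cells attached to fibronectin for 2 hours, stayed overnight in serum-free medium and were lysed 1 hour after bovine serum was added, a step for which one label gives 10% serum and another 20%. The labels name no number of stable lines per group, so the p-values measure the spread between these cultures. Every array followed serum, so no comparison describes the serum response.

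Replication-dependent histone mRNAs are made mainly in S phase, when new DNA needs new nucleosomes. They are the only known metazoan mRNAs that as a rule lack a poly(A) tail and end instead in a conserved stem-loop, which is bound by the stem-loop binding protein (gene Slbp). Their transcription depends on NPAT, a target of cyclin E and CDK2, and their 3' ends are cut by a complex built on the U7 snRNP. Histone genes of one class code for nearly the same protein and share long stretches of sequence, so cross-hybridisation between copies is possible for every member and was not tested. In bulk RNA, fewer cells in S phase and less histone mRNA per cell cannot be told apart.

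The promoter sequences of these genes were searched for motifs, which differed between the classes. RefSeq's promoter table for GRCm38.p6 held 26 of the 31 members, and the 250 bases before the start were searched on both strands. The CCAAT motif was present in 21 of the 26 (80.8%), against 33.8% of 32851 promoters of the same length. It was in all H1, H2A and H2B promoters searched (5 H1, 5 H2A and 8 H2B). Of the others it was in 1 of 2 H3 and 2 of 6 H4 promoters. TATAAA was present in 15 (57.7%), against 12.4% of all. The octamer ATTTGCAT, long known from H2B promoters, was found in 9 (34.6%), against 1.6% of all. Those 9 were 4 of the 5 H2A and 5 of the 8 H2B promoters searched, and none of the H1, H3 and H4 promoters. Of the motifs linked to ternary complex factors, the ETS core CCGGAA occurred in 1 promoter (3.8%, an H4 gene), against 12% of all, and the CArG box of serum response factor in 2 (7.7%, both H2B), against 1.5%. These are matches of letters and do not show binding. The promoters below belong to the members that differed from control in both knockdowns and that the table holds, with motif matches in capitals, and a match on the opposite strand appears as its reverse complement. They are written 5' to 3' on the gene's strand and cover chr13:23738557-23738806 (+) for H1f2, chr13:23750838-23751087 (+) for H2ac4, chr13:23746484-23746733 (+) for H2bc3, chr13:23575513-23575762 (+) for H3c4 and chr3:96239128-96239377 (-) for H3c15.
H1f2: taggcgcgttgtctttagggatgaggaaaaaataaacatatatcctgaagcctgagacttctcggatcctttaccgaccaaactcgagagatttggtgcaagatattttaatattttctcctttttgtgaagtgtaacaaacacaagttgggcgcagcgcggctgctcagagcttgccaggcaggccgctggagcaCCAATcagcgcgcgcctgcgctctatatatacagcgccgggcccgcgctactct
H2ac4: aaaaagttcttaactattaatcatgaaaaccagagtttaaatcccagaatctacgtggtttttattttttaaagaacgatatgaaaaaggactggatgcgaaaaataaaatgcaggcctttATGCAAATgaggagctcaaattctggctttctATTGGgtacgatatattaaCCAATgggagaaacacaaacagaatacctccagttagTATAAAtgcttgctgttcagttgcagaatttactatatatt
H2bc3: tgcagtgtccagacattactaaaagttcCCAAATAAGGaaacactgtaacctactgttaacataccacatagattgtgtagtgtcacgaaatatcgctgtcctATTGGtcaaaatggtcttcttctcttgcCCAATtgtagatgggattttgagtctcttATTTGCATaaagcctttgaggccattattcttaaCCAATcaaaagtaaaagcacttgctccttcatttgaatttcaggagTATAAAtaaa
H3c4: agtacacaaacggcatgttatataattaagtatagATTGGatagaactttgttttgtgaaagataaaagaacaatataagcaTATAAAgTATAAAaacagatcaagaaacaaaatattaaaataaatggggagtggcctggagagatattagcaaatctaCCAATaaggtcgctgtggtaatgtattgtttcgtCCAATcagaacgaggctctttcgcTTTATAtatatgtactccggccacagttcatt
H3c15: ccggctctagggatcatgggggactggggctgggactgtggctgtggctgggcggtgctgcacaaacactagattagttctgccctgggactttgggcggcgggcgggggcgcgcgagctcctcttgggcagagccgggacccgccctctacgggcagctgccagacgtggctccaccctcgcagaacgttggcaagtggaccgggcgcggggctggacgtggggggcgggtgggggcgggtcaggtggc
No 2 matches overlap in these 5 promoters. H2ac4 and H2bc3 carry the octamer beside the CCAAT and the TATA motif. It begins 129 bases before the start in H2ac4 and 90 bases before it in H2bc3. The CArG box of H2bc3 begins 222 bases before its start. H3c15, the member with the largest rise in both knockdowns, has none of the 5 motifs in this window.

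The targeted genes were lower in their own knockdowns, but each was also lower in the other knockdown. The Net shRNA cells had Elk4 lowered about as much as Elk3. Elk3 averaged 11.08 on the log2 scale with the Net shRNA, 11.38 with the Sap-1 shRNA and 11.51 in control cells. It fell by 0.42 with the Net shRNA (limma adjusted p = 1.1e-05) and fell by 0.12 with the Sap-1 shRNA (adjusted p = 0.022). Elk4 averaged 10.63 with the Net shRNA, 9.53 with the Sap-1 shRNA and 11.07 in control cells. It fell by 0.44 with the Net shRNA (limma adjusted p = 2.6e-05) and fell by 1.54 with the Sap-1 shRNA (adjusted p = 1.6e-09). The 8 fibroblast marker genes had means of 11.70 to 13.92 in Net shRNA cells, 11.52 to 13.94 in Sap-1 shRNA cells and 11.84 to 14.04 in control cells, and 0 rose and 2 fell in Net shRNA cells and 0 rose and 3 fell in Sap-1 shRNA cells. Of 5 epithelial markers 1 rose in Net shRNA cells, and of 4 endothelial markers 1 rose in Sap-1 shRNA cells. Of 4 measured haematopoietic markers 1 rose in Net shRNA cells and 1 fell in Sap-1 shRNA cells. In control cells the gene means were 6.35 to 8.30 for epithelial, 6.12 to 7.36 for endothelial and 6.12 to 8.38 for haematopoietic markers. The brightest epithelial and haematopoietic markers thus lay above 7.84, the median level of all tested probe sets. The 5 germ line markers gave no call against control. Their means were 4.24 to 7.04 with the Net shRNA, 4.22 to 7.07 with the Sap-1 shRNA and 4.22 to 7.06 in control cells. Of all tested probe sets 13.2% were higher and 10.6% lower in Net shRNA cells, and 15.4% higher and 13.8% lower in Sap-1 shRNA cells.

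The largest differences among the members were the rises of the H3 gene H3c15 and the H2B gene H2bc4 and the fall of the linker histone gene H1f2, all in both knockdowns. In Net shRNA cells 11 of the 31 members were higher than control at an adjusted p under 0.05 and 1 was lower, while 13.2% of all tested probe sets were higher and 10.6% lower. The higher share of the members exceeded that background, which is a description and was not tested. The arrays of Net shRNA and control did not overlap for 12 members on the higher side, against 18.3% of all probe sets, and for 1 on the lower side, against 16.5%. In Sap-1 shRNA cells 5 members were higher and 1 was lower, while 15.4% of all probe sets were higher and 13.8% lower. The share of members that rose, 5 of 31, is near that background. The arrays did not overlap for 5 members on the higher side, against 20.5% of all, and for 1 on the lower side, against 20.6%. Both comparisons use the same 3 control arrays. The 5 members that rose in both knockdowns were H2ac4, H2bc4, H2bc3, H3c4 and H3c15, H1f2 fell in both, and none was called in opposite directions. The share of all tested probe sets called in both knockdowns was not counted. Whether these joint counts exceed it was therefore not tested. The 18 members called in none of the 3 comparisons were H1f3, H1f5, H1f6, H2ac1, H2ac8, H2ac15, H2bu2, H2bu1-ps, H2bc1, H2bc8, H2bc9, H2bc21, H2bc22, H3c7, H4c3, H4c6, H4c8 and H4f16. The median difference of the members was 0.13 in Net shRNA cells and 0.08 in Sap-1 shRNA cells, against -0.0036 (Net) and -0.018 (Sap-1) for all tested probe sets. The 19 members not called in Net shRNA cells ran from -0.10 to 0.18, with 95% intervals between -0.26 and 0.37. The 25 not called in Sap-1 shRNA cells ran from -0.14 to 0.20, with intervals between -0.29 and 0.39.

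**Figure D1:**
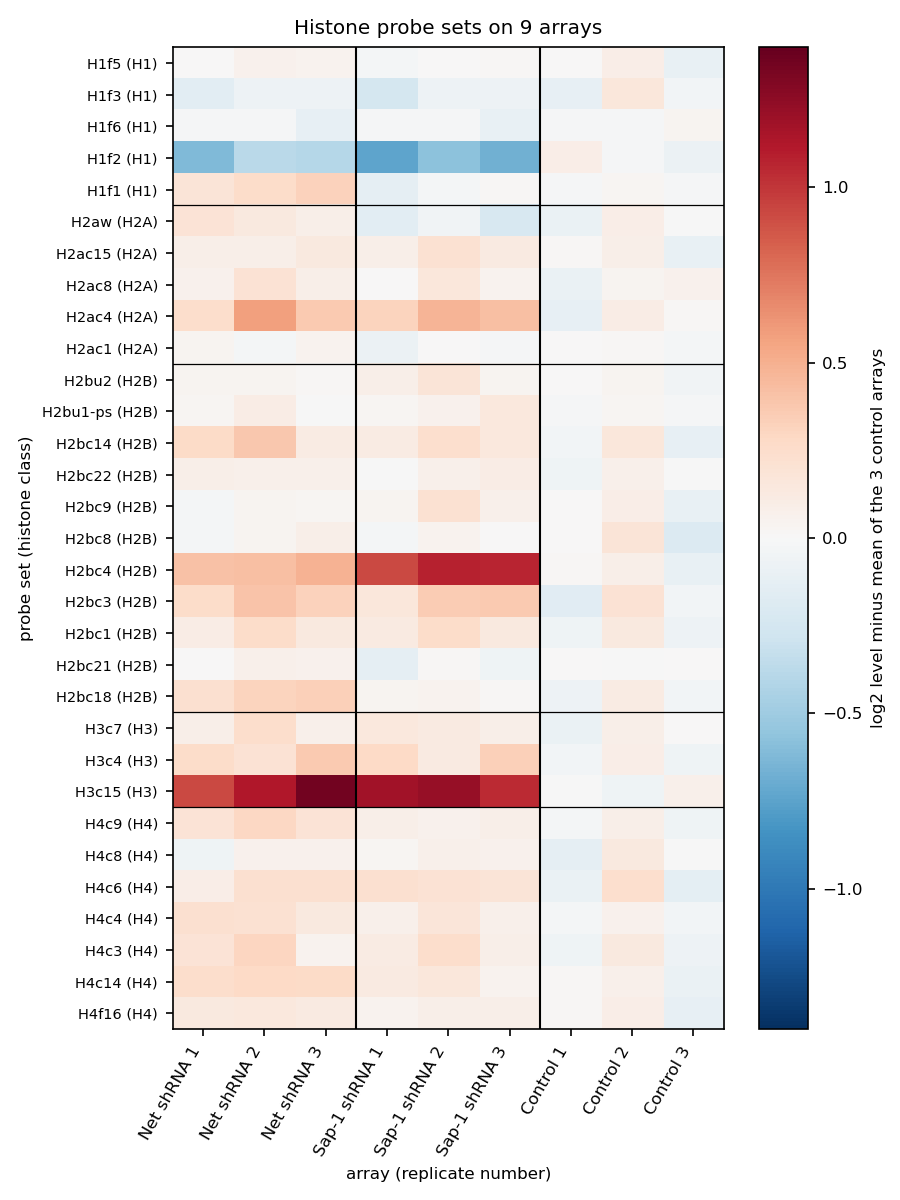
Log2 level of each of the 31 histone probe sets (rows, grouped by class) on each of the 9 arrays (columns), shown as the difference from the mean of the 3 control arrays. H3c15 and H2bc4 are the darkest red rows on the knockdown arrays and H1f2 the darkest blue, while most other rows stay pale.

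Within each group the array numbered 2 was most often the highest for these genes. It held the highest of 3 values for 17 of the 31 members in Net shRNA cells, against 36.0% of all tested probe sets, for 20 in Sap-1 shRNA cells, against 30.2%, and for 26 in control cells, against 28.1%. Without control replicate 2, 15 members were higher in Net shRNA cells, where 11.5% of all probe sets were higher, and 9 in Sap-1 shRNA cells, where 14% were. The median difference of the members was then 0.18 (Net) and 0.12 (Sap-1), against -0.0074 (Net) and -0.022 (Sap-1) for all probe sets. Without control replicate 1 the counts were 9 in Net shRNA cells, where 10.1% of all probe sets were higher, and 3 in Sap-1 shRNA cells, where 12.8% were. Without control replicate 3 they were again 9 (Net, with 11.9% of all) and 3 (Sap-1, with 14.2% of all). Without Sap-1 replicate 3 the Sap-1 count was also 3, with 13.7% of all. H1f2 was the single lower member in both comparisons with each of these arrays left out. The pooled within-group SD had a median of 0.0768 over the members and of 0.0667 over all tested probe sets.

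Linker histones H1 bind the DNA between nucleosomes. Their most prominent member was H1f2, which encodes H1.2. Its log2 level was 10.95, 11.20 and 11.17 in Net shRNA replicates 1 to 3, 10.83, 10.99 and 10.90 in the Sap-1 shRNA replicates, and 11.67, 11.55 and 11.49 in the control replicates. All 6 knockdown arrays lay below all 3 control arrays. The means were 11.11 ± 0.13 with the Net shRNA, 10.91 ± 0.08 with the Sap-1 shRNA and 11.57 ± 0.09 in control cells (SD, n = 3 each). H1f2 fell by 0.46 in Net shRNA cells (SE 0.07, limma adjusted p = 0.00089), a level 0.725 times that of control. It fell by 0.66 in Sap-1 shRNA cells (SE 0.07, adjusted p = 4.8e-05), a level 0.632 times that of control. The knockdowns differed by 0.20 (Net minus Sap-1, 95% interval 0.04 to 0.36, adjusted p = 0.071), short of the threshold.

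H1f1, which encodes H1.1, gave a rise in one knockdown. It read 9.33, 9.40 and 9.47 in Net shRNA cells, 9.02, 9.12 and 9.16 in Sap-1 shRNA cells, and 9.13, 9.17 and 9.13 in control cells. The Net shRNA arrays lay above all others, and the Sap-1 shRNA and control arrays overlapped. H1f1 rose by 0.25 in Net shRNA cells (SE 0.05, limma adjusted p = 0.0036), while its difference in Sap-1 shRNA cells was -0.04 (95% interval -0.16 to 0.07). The Net minus Sap-1 difference was 0.30 (SE 0.05, adjusted p = 0.001). The other 3 linker genes were not called. H1f5, which encodes H1.5, ran from 10.44 to 10.50 in Net shRNA cells, 10.41 to 10.45 in Sap-1 shRNA cells and 10.33 to 10.53 in control cells. H1f3, which encodes H1.3, differed by -0.10 in Net shRNA cells and -0.13 in Sap-1 shRNA cells, and the testis gene H1f6 by -0.05 in each.

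Histone H2A forms a dimer with H2B in the nucleosome. Of its 5 probe sets, H2ac4 (Hist1h2ab) rose in both knockdowns. The levels were 7.17, 7.51 and 7.30 in Net shRNA cells, 7.24, 7.41 and 7.35 in Sap-1 shRNA cells, and 6.81, 7.03 and 6.94 in control cells, with no overlap between either knockdown and control. H2ac4 rose by 0.40 in Net shRNA cells (SE 0.08, limma adjusted p = 0.0057) and by 0.40 in Sap-1 shRNA cells (SE 0.08, adjusted p = 0.004). The knockdowns differed by -0.01 (95% interval -0.19 to 0.18).

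H2aw (Hist3h2a), the H2A gene of the Hist3 cluster, was called between the knockdowns but in neither against control. Its levels were 10.71, 10.66 and 10.60 in Net shRNA cells, 10.37, 10.47 and 10.29 in Sap-1 shRNA cells, and 10.42, 10.61 and 10.52 in control cells. The control values overlapped with both knockdowns, and the knockdowns did not overlap with each other. Against control it differed by 0.14 in Net shRNA cells (adjusted p = 0.13) and by -0.14 with the Sap-1 shRNA (adjusted p = 0.11), and the Net minus Sap-1 difference was 0.28 (SE 0.06, limma adjusted p = 0.0047). The other 3 were not called. H2ac15 differed by 0.10 in Net shRNA cells and 0.14 in Sap-1 shRNA cells, H2ac8 by 0.12 in Net shRNA cells and 0.07 in Sap-1 shRNA cells, and the testis gene H2ac1 by 0.02 in Net shRNA cells and -0.03 in Sap-1 shRNA cells.

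Histone H2B had the most probe sets, 11, of which 4 rose in Net shRNA cells and 2 in Sap-1 shRNA cells, where 13.2% (Net) and 15.4% (Sap-1) of all tested probe sets were higher. The Sap-1 count is near that background. H2bc4 (Hist1h2bc) separated all 3 groups. It read 10.25, 10.26 and 10.33 in Net shRNA cells, 10.76, 10.92 and 10.90 in Sap-1 shRNA cells, and 9.86, 9.92 and 9.74 in control cells. No 2 groups overlapped, with means of 10.28 ± 0.04 with the Net shRNA, 10.86 ± 0.09 with the Sap-1 shRNA and 9.84 ± 0.09 in control cells (SD, n = 3 each). H2bc4 rose by 0.44 in Net shRNA cells (SE 0.06, limma adjusted p = 0.00029), a 1.36-fold difference, and by 1.02 in Sap-1 shRNA cells (SE 0.06, adjusted p = 3.2e-07), a 2.03-fold difference. The Net minus Sap-1 difference was -0.58 (SE 0.06, adjusted p = 2.6e-05), the only lower call of a member in that comparison.

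H2bc18 (Hist2h2bb) went the other way between the knockdowns. Its levels were 8.87, 8.96 and 8.97 in Net shRNA cells, 8.69, 8.70 and 8.66 in Sap-1 shRNA cells, and 8.57, 8.76 and 8.61 in control cells. The Net shRNA arrays lay above all others, and the Sap-1 shRNA arrays lay within the control range. H2bc18 rose by 0.29 in Net shRNA cells (SE 0.05, limma adjusted p = 0.0022), its difference in Sap-1 shRNA cells was 0.04 (95% interval -0.08 to 0.15), and the Net minus Sap-1 difference was 0.25 (SE 0.05, adjusted p = 0.0041). The 50 nearest genes that are not histone genes had a median Net minus Sap-1 difference of 0.13 there, and with it taken off the difference of H2bc18 was 0.12 (adjusted p = 0.12).

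H2bc3 (Hist1h2bb) read 10.10, 10.25 and 10.17 in Net shRNA cells, 10.00, 10.21 and 10.21 in Sap-1 shRNA cells, and 9.69, 10.05 and 9.81 in control cells. The Net shRNA arrays lay above the control arrays, while 1 Sap-1 shRNA array lay below control replicate 2. H2bc3 rose by 0.33 in Net shRNA cells (SE 0.09, limma adjusted p = 0.022) and by 0.29 in Sap-1 shRNA cells (SE 0.09, adjusted p = 0.031). Leaving out control replicate 1, control replicate 3, Net replicate 2 or Net replicate 3 ended the Net call, and leaving out either of those control arrays, Sap-1 replicate 2 or Sap-1 replicate 3 ended the Sap-1 call. H2bc14 (Hist1h2bm) had 11.73, 11.85 and 11.58 in Net shRNA cells, 11.59, 11.71 and 11.62 in Sap-1 shRNA cells, and 11.43, 11.63 and 11.35 in control cells, so that all 3 groups overlapped. It rose by 0.25 in Net shRNA cells (SE 0.08, adjusted p = 0.047), a call lost under 11 of 22 other settings, and differed by 0.17 with the Sap-1 shRNA (adjusted p = 0.16).

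The other 7 H2B genes were called in none of the 3 comparisons. The testis gene H2bc1 came nearest, at 0.16 in Net shRNA cells (adjusted p = 0.1) and 0.18 with the Sap-1 shRNA (adjusted p = 0.067), and was called higher in both without control replicate 2 (adjusted p = 0.023 for Net and 0.015 for Sap-1). H2bc9 differed by 0.01 in Net shRNA cells and 0.11 in Sap-1 shRNA cells. The Net shRNA difference was 0.03 and the Sap-1 shRNA difference 0.01 for H2bc8, they were 0.08 (Net) and 0.06 (Sap-1) for H2bc22, and 0.05 (Net) and -0.05 (Sap-1) for H2bc21. In the Hist3 cluster H2bu2 differed by 0.03 in Net shRNA cells and 0.10 in Sap-1 shRNA cells, and the pseudogene H2bu1-ps by 0.04 (Net) and 0.08 (Sap-1).

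Histone H3 pairs with H4 at the core of the nucleosome. Of its 3 probe sets, H3c15 (Hist2h3c2), a gene for the H3.2 protein, showed the largest rise of all members in both knockdowns. Its level was 6.59, 6.78 and 7.01 in Net shRNA cells, 6.84, 6.88 and 6.71 in Sap-1 shRNA cells, and 5.66, 5.60 and 5.73 in control cells. Every knockdown array lay above every control array, and the knockdowns overlapped. The means were 6.79 ± 0.21 with the Net shRNA, 6.81 ± 0.09 with the Sap-1 shRNA and 5.66 ± 0.07 in control cells (SD, n = 3 each). H3c15 rose by 1.13 in Net shRNA cells (SE 0.09, limma adjusted p = 9.2e-06), a 2.19-fold difference, and by 1.15 in Sap-1 shRNA cells (SE 0.09, adjusted p = 4.5e-06), a 2.22-fold difference. The knockdowns differed by -0.02 (95% interval -0.22 to 0.19). It was the one member past 1.5-fold in Net shRNA cells, and with H2bc4 and H1f2 one of 3 in Sap-1 shRNA cells. Its values in all 3 groups lay below 7.84, the median level of all tested probe sets, and no detection calls were used here, so its signal above background was not tested.

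H3c4 (Hist1h3d) changed less. It read 7.12, 7.07 and 7.24 in Net shRNA cells, 7.15, 6.99 and 7.20 in Sap-1 shRNA cells, and 6.84, 6.96 and 6.81 in control cells, with no overlap between either knockdown and control. H3c4 rose by 0.27 in Net shRNA cells (SE 0.07, limma adjusted p = 0.011) and by 0.24 in Sap-1 shRNA cells (SE 0.07, adjusted p = 0.016). The Sap-1 call ended without control replicate 1, control replicate 3, Sap-1 replicate 1 or Sap-1 replicate 3. H3c7 had levels of 4.34 to 4.50 in Net shRNA cells, 4.34 to 4.41 in Sap-1 shRNA cells and 4.17 to 4.34 in control cells. It differed by 0.13 in Net shRNA cells (adjusted p = 0.14) and 0.12 with the Sap-1 shRNA (adjusted p = 0.17).

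Histone H4 rose in Net shRNA cells for 3 of 7 genes and in Sap-1 shRNA cells for 0 of 7. Of all tested probe sets 13.2% (Net) and 15.4% (Sap-1) were higher. An unadjusted limma p under 0.05 was found for 2 of the 7 in Sap-1 shRNA cells. So it was for 8177 of all 21780 tested probe sets, in either direction. H4c14 (Hist2h4) had 12.25, 12.29 and 12.27 in Net shRNA cells, 12.13, 12.17 and 12.06 in Sap-1 shRNA cells, and 12.03, 12.08 and 11.92 in control cells. The Net shRNA arrays lay above all others, and the Sap-1 shRNA and control arrays overlapped slightly. H4c14 rose by 0.26 in Net shRNA cells (SE 0.05, limma adjusted p = 0.0028), differed by 0.11 with the Sap-1 shRNA (adjusted p = 0.13), and had a Net minus Sap-1 difference of 0.15 (SE 0.05, adjusted p = 0.042). With the shift of its neighbours on chromosome 3 taken off, that last difference was 0.02.

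H4c9 (Hist1h4i) had 7.51, 7.62 and 7.51 in Net shRNA cells, 7.41, 7.38 and 7.41 in Sap-1 shRNA cells, and 7.29, 7.41 and 7.26 in control cells. It rose by 0.22 in Net shRNA cells (SE 0.05, limma adjusted p = 0.0061), differed by 0.08 with the Sap-1 shRNA (adjusted p = 0.28), and had a Net minus Sap-1 difference of 0.15 (SE 0.05, adjusted p = 0.047). The Net shRNA arrays lay above all others. The calls between the knockdowns were fragile, lost under 13 of 21 other settings for H4c9 and under 10 of 22 for H4c14. H4c4 (Hist1h4d) had 13.41, 13.40 and 13.33 in Net shRNA cells, 13.26, 13.36 and 13.26 in Sap-1 shRNA cells, and 13.16, 13.25 and 13.15 in control cells. It rose by 0.19 in Net shRNA cells (SE 0.05, adjusted p = 0.012) and differed by 0.10 with the Sap-1 shRNA (adjusted p = 0.14), where the arrays did not overlap. Among the 4 H4 genes not called, H4c6 differed by 0.18 in Net shRNA cells and 0.20 in Sap-1 shRNA cells, H4c3 by 0.18 (Net) and 0.14 (Sap-1), H4f16 by 0.13 (Net) and 0.07 (Sap-1), and H4c8 by 0.02 (Net) and 0.05 (Sap-1).

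**Figure D2:**
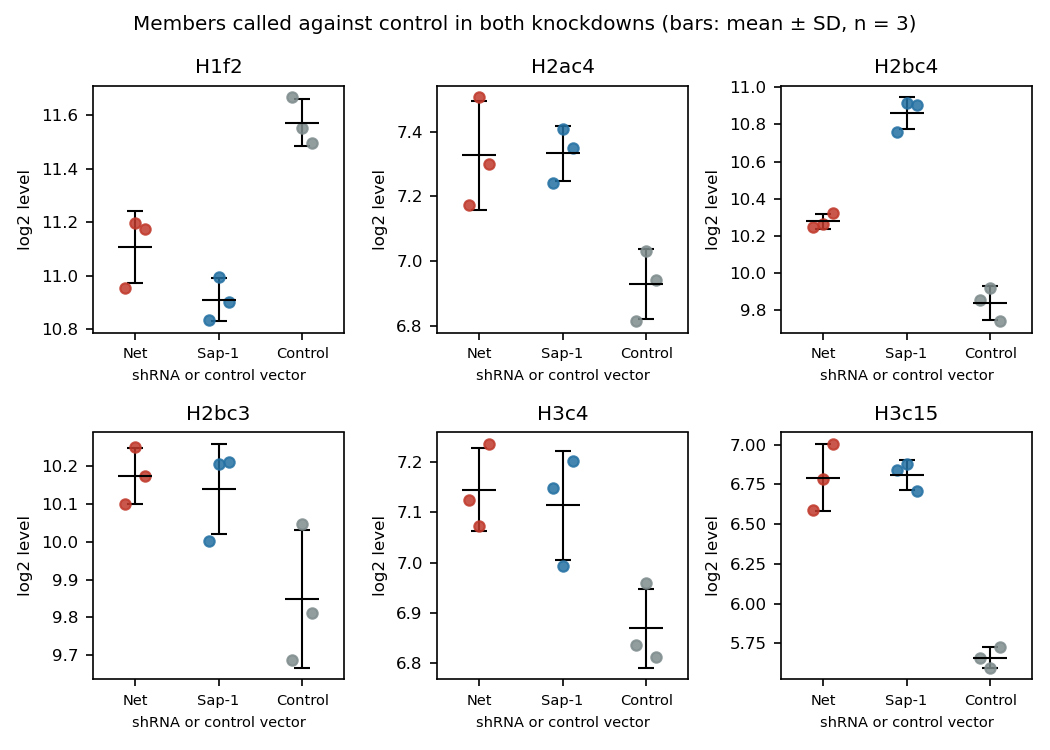
Log2 level on each array (points) with mean ± SD (n = 3 arrays) for the 6 histone genes called against control in both knockdowns. H1f2 lies lower in both knockdowns, H2bc4 separates all 3 groups with Sap-1 shRNA the highest, and H3c15 averages 6.79 with the Net shRNA and 6.81 with the Sap-1 shRNA, against 5.66 in control cells. Axes do not start at 0.

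The knockdowns were also set against each other, which tests whether they differ. In this comparison 5 members were higher in Net shRNA cells (H1f1, H2aw, H2bc18, H4c14 and H4c9), while 14% of all tested probe sets were higher, and 1 was lower (H2bc4), while 13.2% were lower. The arrays did not overlap for 6 members on the higher side, against 19.5% of all probe sets, and for 2 on the lower side, against 17.9%. No member reached a 1.5-fold difference. The median difference of the members was 0.03, against 0.015 for all tested probe sets, and the 25 members not called ran from -0.09 to 0.20, with 95% intervals between -0.23 and 0.36. After centring of the arrays on their medians, 3 members were higher with the Net than with the Sap-1 shRNA, where 11.6% of all probe sets were higher. With the Sap-1 shRNA against control, 10 were then higher, where 18% of all probe sets were higher and 11.2% lower, and the median difference of all probe sets was 0.013.

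**Figure D3:**
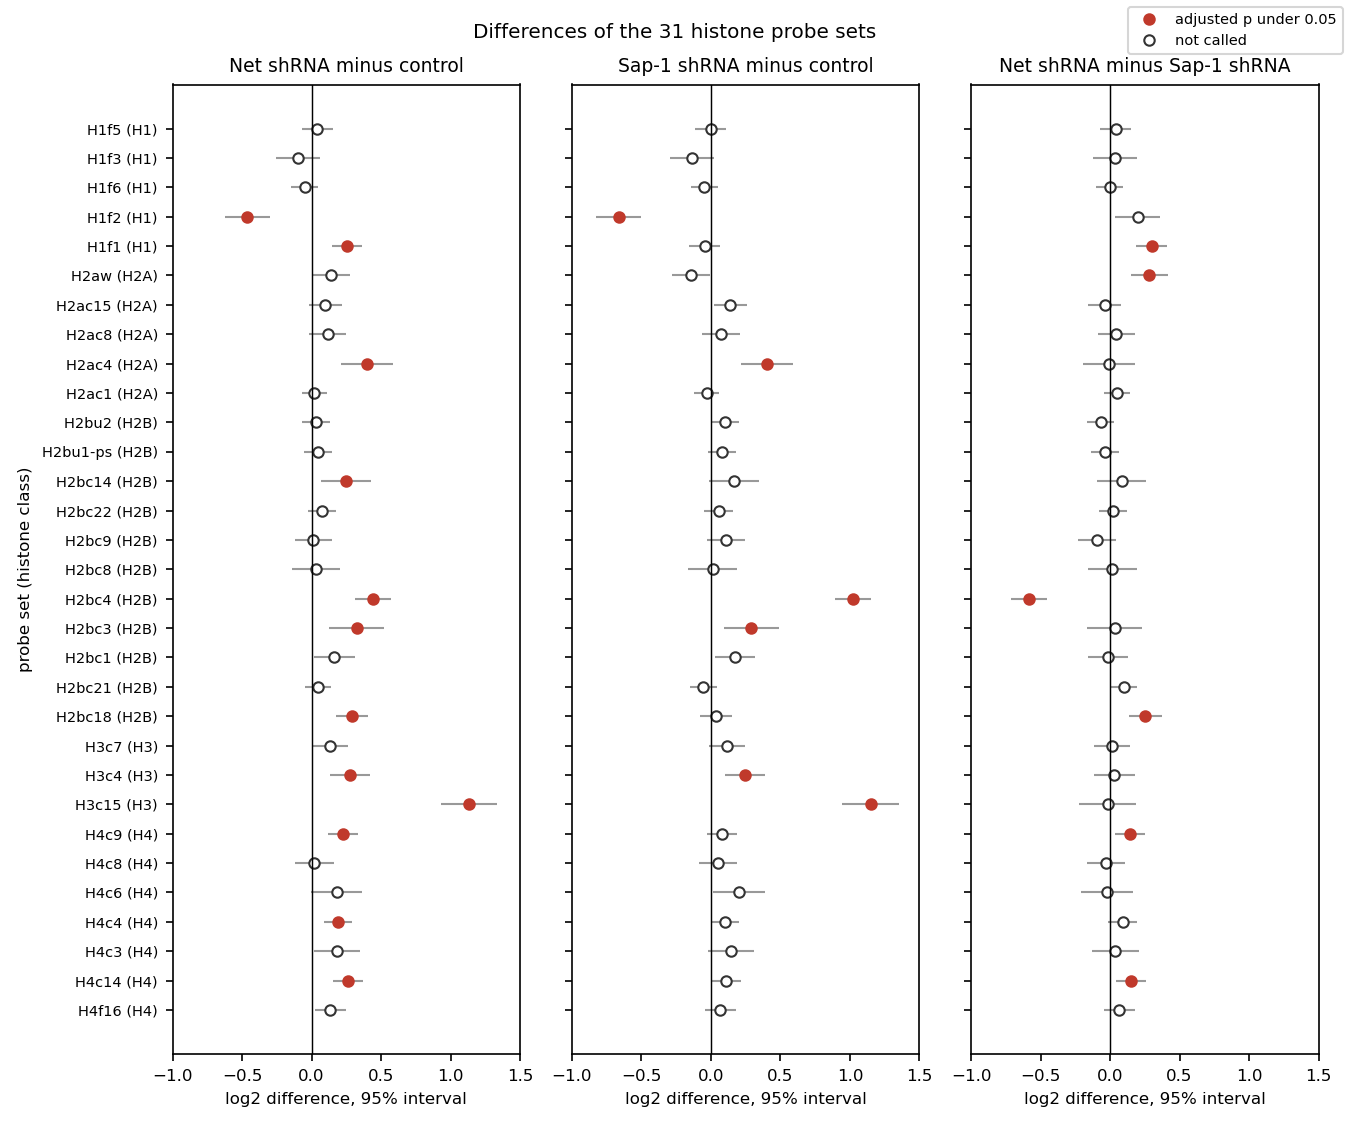
Log2 difference with its 95% interval for each of the 31 histone probe sets in the 3 comparisons, with filled points at a limma adjusted p under 0.05. H3c15 lies above 1 in both knockdowns against control, H2bc4 is higher in Sap-1 than in Net shRNA cells, and H1f2 lies below 0 in both knockdowns.

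A further 27 probe sets of the table match several genes with a histone gene among them. They are no members, and they were tested in a fit over all 28815 probe sets that was added after the data were seen. They match the same genes, so they do not count as independent measurements. The 10 H3 probe sets, matched to 12 genes each, were all higher in Net shRNA cells, by 0.25 to 0.34 (limma adjusted p = 0.0014 to 0.0061), where 10.8% of the 28815 were higher and 8.83% lower. Their levels ran from 13.28 to 13.54 in Net shRNA cells, 13.03 to 13.36 in Sap-1 shRNA cells and 12.95 to 13.28 in control cells. In Sap-1 shRNA cells their differences were 0.06 to 0.13 and none was called (adjusted p = 0.1 to 0.53), while 13.2% of the 28815 were higher and 11.5% lower. With arrays centred on their medians 1 was called there, and 1 without Sap-1 replicate 3. All 10 stayed called in Net shRNA cells under 3 other scalings and without any 1 array. Between the knockdowns 9 of the 10 were higher in Net shRNA cells, by 0.15 to 0.23 over the 10, where 11.3% of the 28815 were higher and 11.4% lower. That count was 2 with arrays centred on their medians, 10 after cyclic loess or quantile normalization, and 0 without Net replicate 1 or without Sap-1 replicate 3.

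The 5 H4 probe sets were matched to 11 genes, and 2 of the 5 had identical values. In Net shRNA cells they differed by 0.13 to 0.19 (limma adjusted p = 0.015 to 0.057). There 4 were called higher, against 10.8% of the 28815 probe sets. With 1 array left out that count ran between 0 (without control replicate 3) and 5. In Sap-1 shRNA cells they differed by 0.09 to 0.12 and 0 were called, against 13.2% of the 28815 higher. With arrays centred on their medians 3 were called, without control replicate 2 there were 2 and without Sap-1 replicate 3 there was 1. Under the other scalings or with any other array left out, 0 were called in Sap-1 shRNA cells. The 7 H2B probe sets matched to 14 or 15 genes, of which 2 had identical values, gave no call in any of the 3 comparisons. They differed by 0.08 to 0.11 in Net shRNA cells and by 0.12 to 0.14 with the Sap-1 shRNA (adjusted p = 0.081 to 0.1). Without control replicate 2 all 7 were higher with the Sap-1 shRNA (median 0.18, limma adjusted p = 0.027 to 0.044). In that setting 14% of the 21780 probe sets with 1 symbol were higher. The 7 match largely the same genes and do not count as 7 measurements. With any other array left out or under 3 other scalings 0 were called. Shares of the 28815 were not counted for these settings, nor for those of the H3 and H4 probe sets. Of the other 5 probe sets, 4 were higher than control with the Net shRNA (10.8% of the 28815) and 1 with the Sap-1 shRNA (13.2%). Between the knockdowns 2 of them were higher with the Net shRNA (11.3%).

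**Figure D4:**
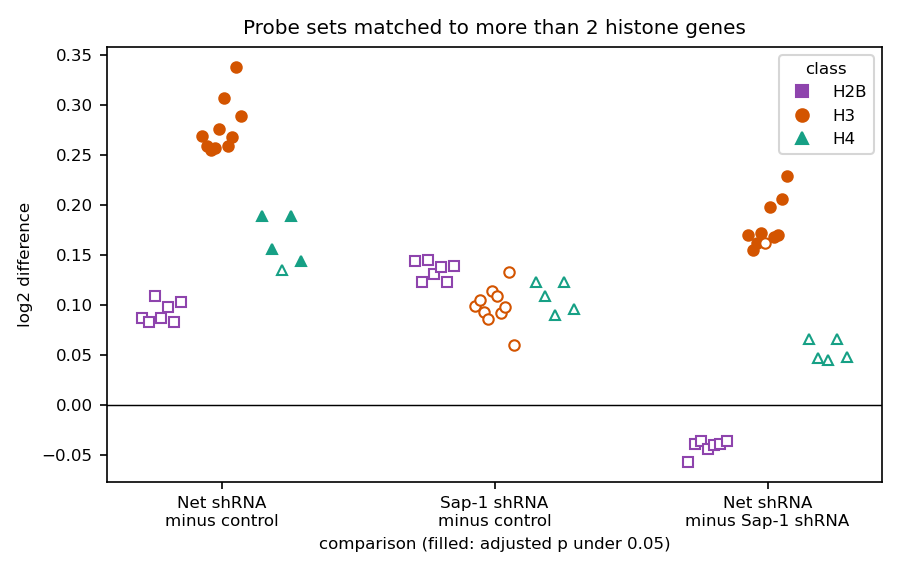
Log2 difference of the probe sets matched to more than 2 histone genes of one class (7 H2B, 10 H3 and 5 H4) in the 3 comparisons, with filled symbols at a limma adjusted p under 0.05 in the fit over all 28815 probe sets. The H3 probe sets lie highest in Net shRNA cells against control, at 0.25 to 0.34, and at 0.06 to 0.13 in Sap-1 shRNA cells against control.

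A list of genes for making and processing histone mRNA, and the 3 lists after it, are read against the same background. In Net shRNA cells that is 13.2% higher and 10.6% lower, and in Sap-1 shRNA cells 15.4% higher and 13.8% lower. The first list also holds genes of general mRNA processing, among them Fip1l1, Wdr33, Cpsf4 and Dbr1, so its counts are not specific to histone mRNA. Of its 27 measured genes, 7 rose and 4 fell in Net shRNA cells, and 13 rose and 3 fell in Sap-1 shRNA cells. The medians were 0.05 (Net) and 0.12 (Sap-1). The counts that fell are near the background. Slbp, which encodes the stem-loop binding protein, read 9.64, 9.68 and 9.71 in Net shRNA cells, 9.89, 9.89 and 10.20 in Sap-1 shRNA cells, and 10.06, 10.06 and 9.88 in control cells. Net shRNA lay below both other groups, which overlapped. Slbp fell by 0.32 in Net shRNA cells (limma adjusted p = 0.015), its difference in Sap-1 shRNA cells was -0.0048 (adjusted p = 0.98), and the Net minus Sap-1 difference was -0.32 (adjusted p = 0.014). Npat, the histone gene coactivator, differed by -0.0066 in Net shRNA cells (adjusted p = 0.96) and 0.07 with the Sap-1 shRNA (adjusted p = 0.36). Eri1, a 3' exonuclease that acts on the histone stem-loop, rose by 0.63 in Net shRNA cells (adjusted p = 1.1e-06) and 0.48 with the Sap-1 shRNA (adjusted p = 4.3e-06). Fip1l1, a subunit of the polyadenylation complex, fell by 0.41 in Net shRNA cells (adjusted p = 0.0001) and by 0.56 with the Sap-1 shRNA (adjusted p = 6e-06). Among the cleavage and cap-binding genes, Cpsf3, the endonuclease, rose by 0.23 in Net shRNA cells and 0.12 in Sap-1 shRNA cells, and Ncbp1 by 0.12 (Net) and 0.29 (Sap-1). Cpsf2, a partner of Cpsf3, rose by 0.30 in Sap-1 shRNA cells, and its difference in Net shRNA cells was 0.03. Lsm1, of the mRNA decay machinery, rose by 0.38 in Net shRNA cells and 0.25 in Sap-1 shRNA cells.

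Histone chaperones carry new histones to chromatin. Of 23 measured genes, 7 rose and 3 fell in Net shRNA cells, and 10 rose and 0 fell in Sap-1 shRNA cells, with a median of 0.06 in each. The 3 that fell in Net shRNA cells were Cabin1 (-0.21), Ubn1 (-0.22) and Ubn2 (-0.15). Between the knockdowns 3 were higher and 7 lower with the Net shRNA, against 14% higher and 13.2% lower of all tested probe sets. Among them the Net minus Sap-1 difference was -0.26 for Hira (limma adjusted p = 0.00054) and 0.26 for Set (adjusted p = 0.0059). Asf1b, an H3-H4 chaperone, averaged 11.38 with the Net shRNA, 11.03 with the Sap-1 shRNA and 10.66 in control cells, and rose by 0.72 in Net shRNA cells (limma adjusted p = 1.8e-06) and 0.37 with the Sap-1 shRNA (adjusted p = 0.00012). Nasp, a chaperone of H3-H4 and linker histones, rose by 0.43 in Net shRNA cells and 0.57 in Sap-1 shRNA cells. Chaf1b, a subunit of the replication-coupled assembly factor CAF-1, rose by 0.30 in Net shRNA cells and 0.37 in Sap-1 shRNA cells. Hat1, which acetylates new H4, rose by 0.45 in Net shRNA cells and 0.25 in Sap-1 shRNA cells, and Mms22l, a replication repair factor, by 0.33 (Net) and 0.47 (Sap-1).

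Replacement histones are made outside S phase as well and from other genes. Of 9 measured, 4 rose and 1 fell in Net shRNA cells, and 0 rose and 5 fell with the Sap-1 shRNA. Between the knockdowns 7 were higher and 0 lower with the Net shRNA, against 14% higher and 13.2% lower of all tested probe sets. H1f10, the linker histone H1.10, read 10.04, 10.09 and 10.00 in Net shRNA cells, 8.47, 8.58 and 8.15 in Sap-1 shRNA cells, and 10.28, 10.27 and 10.24 in control cells. It fell by 1.86 in Sap-1 shRNA cells (limma adjusted p = 7.2e-08), its difference in Net shRNA cells was -0.22 (adjusted p = 0.11), and the Net minus Sap-1 difference was 1.65 (adjusted p = 1.9e-07). All 3 Net shRNA arrays lay below the control arrays, and the Net difference was called lower in a fit of only the 6 arrays compared (limma adjusted p = 0.0066), without Sap-1 replicate 3 (0.005), with array weights (0.039) and with neighbours taken off (0.044). In Sap-1 shRNA cells the fall of H1f10 was larger than that of any replication-dependent member. In Net shRNA cells the member H1f2 fell more, by 0.46. Cenpa, the centromeric H3 variant, rose by 0.22 in Net shRNA cells (adjusted p = 0.01) and fell by 0.30 with the Sap-1 shRNA (adjusted p = 0.0012). H2az2 likewise rose by 0.22 in Net shRNA cells (adjusted p = 0.028) and fell by 0.22 with the Sap-1 shRNA (adjusted p = 0.022). H2az1 rose by 0.32 in Net shRNA cells and differed by 0.08 with the Sap-1 shRNA (adjusted p = 0.14), and Macroh2a2 fell by 0.31 in Net shRNA cells and by 0.57 in Sap-1 shRNA cells.

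S phase genes moved with both knockdowns. Of 25 measured genes of DNA replication and its licensing, 20 rose in Net shRNA cells and 22 in Sap-1 shRNA cells, 0 fell in either, and the medians were 0.38 (Net) and 0.37 (Sap-1), above those of the histone members. Cdt1, which loads the replicative helicase, rose by 0.65 in Net shRNA cells and 0.69 in Sap-1 shRNA cells, and Cdc6, its partner in loading, by 0.60 (Net) and 0.69 (Sap-1). The cyclin gene Ccne2 rose by 0.70 in Net shRNA cells (limma adjusted p = 0.00027) and by 1.13 with the Sap-1 shRNA (adjusted p = 4.9e-06). The helicase subunit gene Mcm3 rose by 0.44 in Net shRNA cells (adjusted p = 5.2e-05) and by 0.79 with the Sap-1 shRNA (adjusted p = 3.1e-07). On each array the median deviation of these genes from their own 9-array mean was 0.083, 0.18 and 0.12 in Net shRNA cells, 0.13, 0.13 and 0.14 in Sap-1 shRNA cells, and -0.30, -0.20 and -0.26 in control cells. For the 31 histone members it was 0.0073, 0.076 and 0.039 in Net shRNA cells, -0.014, 0.039 and 0.00013 in Sap-1 shRNA cells, and -0.11, 0.0019 and -0.14 in control cells. The S phase genes separated control from both knockdowns, whereas the median of the histone members in control replicate 2 lay among those of the Sap-1 shRNA arrays. Leaving out H3c15, H2bc4 and H1f2 left the histone medians at 0.011, 0.085 and 0.045 in Net shRNA cells, -0.017, 0.036 and -0.00081 in Sap-1 shRNA cells, and -0.11, 0.0079 and -0.14 in control cells. The part of S phase genes in the histone differences was not tested.

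**Figure D5:**
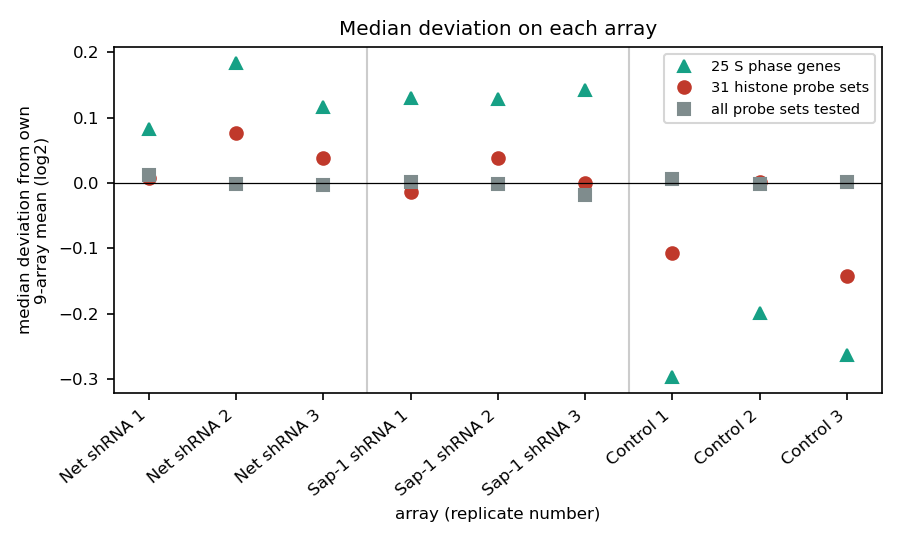
Median deviation of log2 level from the own 9-array mean on each array, for 25 S phase genes (triangles), the 31 histone probe sets (circles) and all 21780 tested probe sets (squares). S phase genes lie at -0.30 to -0.20 on the control arrays and at 0.083 to 0.18 on the knockdown arrays, while the histone members overlap, at -0.14 to 0.0019 on the control arrays and -0.014 to 0.076 on the knockdown arrays.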

How the data were processed

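RNA was labelled with the Ambion WT Expression Kit and hybridised to 9 arrays, 3 per group, per the labels' protocols. The deposited log2 values, one per probe set and array, were made by the authors with RMA (Affymetrix Expression Console), according to the submitters' processing notes. RMA removes background, equalises the arrays and summarises the probes, which shrinks folds of dim genes. Values ran from 3.24 to 14.47, with array medians of 7.47 to 7.54. Arrays have no read depth, and their number limits the precision. Names came from the platform annotation, which gave 1 symbol for 21780 of 28815, several for 1605 and none for 5430, and Entrez IDs of 21689 were found in the RefSeq table of GRCm38.p6. The array design's build is not given in the sources used here, so that table served for names, neighbour order and its own promoters.

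The tests used limma 3.58.1 under R 4.3.3 (lmFit, eBayes, no trend), in one fit over 9 arrays with 6 residual and 4.4 prior degrees of freedom, Benjamini-Hochberg adjustment over the 21780 probe sets and calls at an adjusted p under 0.05. The scripts were tested on simulated data. Members and gene lists were chosen with earlier results of these data known. Values on all arrays are given for up to 2 called members per class and comparison with the smallest adjusted p, and other members, among them H2bc14 and H4c4, were added after their values were seen. Of the other lists up to 4 called genes per comparison, and always Slbp and Npat, are named. A gene with several probe sets was taken by the brightest. Other settings were the replicate block, an intensity trend, only the 6 arrays compared, 3 scalings, a filter on dim probe sets, 1 probe set per gene, identical members counted once, array weights, each array left out, an adjusted p under 0.01 and the median shift of 50 neighbouring genes taken off. No member had values identical to another probe set. Counting identical members once, which is among the 22 other settings, could therefore change no call.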

Additional observations from a re-analysis of the deposited data

Results flagged for a closer look

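For 6 members the knockdowns differed from each other, by the limma test of that difference itself. Net minus Sap-1 was 0.30 for H1f1, 0.28 for H2aw, 0.25 for H2bc18, 0.15 for H4c9, 0.15 for H4c14 and -0.58 for H2bc4. The first 5 were thus higher in Net shRNA cells and H2bc4 was lower, while 14% of all tested probe sets were higher and 13.2% lower. The share of members that were higher, 5 of 31, is near that background. The calls of H1f1, H2aw and H2bc4 held under all 22 other settings, that of H2bc18 under all but the subtraction of its neighbours, while that of H4c9 was lost under 13 of 21 settings and that of H4c14 under 10 of 22.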

How the results depend on the processing

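The settings were tried one at a time. H1f2 stayed the single lower member against control in every setting, H2bc4 the single lower member between the knockdowns, and no called value changed sign. Of the 24 calls of members, 15 held in every setting that gave them a value, but 5 of these, H2ac4 and H3c15 in both knockdowns and H4c9 in Net shRNA cells, have none after the filter on dim probe sets. That filter left 19 members, of which 8 were higher in Net shRNA cells, against 25.7% of the probe sets it left, and 4 in Sap-1 shRNA cells, against 28.9%. In Net shRNA cells the 11 higher members became 7 at an adjusted p under 0.01, where 8.97% of all probe sets were higher. With 1 array left out the count was 9 to 15, where 10.1% to 13.2% of all were higher. The median difference of all 31 members, 0.13, ran from 0.11 to 0.18 with 1 array left out and from 0.10 to 0.16 in the other settings. In Sap-1 shRNA cells the 5 higher members became 8 with the replicate block and 10 with arrays centred on their medians. Of all probe sets 15.9% (block) and 18% (centred) were then higher. At an adjusted p under 0.01 the count was 3, near the background of 11.5%. With 1 array left out the count was 3 to 9, where 12.8% to 16.1% of all were higher. The median of 0.08 became 0.11 with centred arrays and 0.064 to 0.12 with 1 array left out. Between the knockdowns the 5 higher members became 3 with centred arrays (11.6% of all probe sets) and with neighbours taken off (12.3%). The count was also 3 with all probe sets of the table (11.3%) and at an adjusted p under 0.01 (10.1%). With 1 array left out it was 3 to 5, against 12.1% to 14% of all. Without control replicate 1, Net replicate 2, Net replicate 3, Sap-1 replicate 1 or Sap-1 replicate 3 it was 3. With the replicate block 13 members were higher with the Net shRNA (13.6% of all probe sets), 8 with the Sap-1 shRNA (15.9%) and 5 between the knockdowns (14.7%). H2bc1 and H4c3, not called against control in the fit on which the text rests, were called in both knockdowns with it (limma adjusted p = 0.013 and 0.012 for Net, 0.0075 and 0.028 for Sap-1), and H2bc14 in Sap-1 shRNA cells (adjusted p = 0.028). Over all probe sets, same-numbered replicates correlated at -0.12 to 0.37 over 9 pairs, at 0.16 to 0.37 for the 3 pairs numbered 1, and 5 of the 9 correlated best with their own number. No label ties the numbers to a shared day or batch and not every pair passed 0.1, so the fit without the block was kept, and whether the numbers mark shared cultures was not settled. The cause of these changes was not tested. The smallest called difference of a member was 0.15 in size. RMA may compress the folds of the 12 members below the median level of all probe sets, which was not tested.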
